A study of Mus musculus with 8 samples.

Results

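The first exposure of R1 mouse embryonic stem cells to ML-792 was read from 4 of the 8 RNA sequencing libraries of the study, 2 at D3 and 2 at D1, chosen by their labels. The D3 libraries came from cells that had spent 48 h with ML-792, at a dose the labels give as 2.5 mM; whether the unit was meant as millimolar or micromolar could not be settled from the labels. The D1 libraries came from the same line, labelled control, before the inhibitor was added. Both groups were grown in serum with LIF, and R1 is an established embryonic stem cell line of 129 background. The other 4 libraries are a second exposure, 2 at D10 after 48 h with ML-792 and 2 at D8 before it. They serve here to estimate the spread and for 1 comparison of the responses. The D8 libraries follow the first exposure and withdrawal of the inhibitor, so they are not a baseline of cells that never met ML-792. No library at D3 lacks ML-792, so an effect of the inhibitor and one of 48 h more in culture cannot be told apart. The time tag of D1 replicate 2 reads day 0 while its title reads D1, and the title was followed. Nothing in the labels says that replicates are separate cultures, so p-values may measure technical spread alone.

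SUMO proteins are small relatives of ubiquitin that are joined to lysines of other proteins. The E1 enzyme, a pair of the subunits Sae1 and Uba2, activates SUMO, further enzymes pass it on, and Senp proteases remove it. ML-792 is a small molecule that blocks the E1 step. Many SUMO targets are chromatin proteins, and in mouse embryonic stem cells SUMO is known for helping to keep genes of the 2-cell embryo silent, among them Dux, the transcription factor that switches on the Zscan4 genes. RNA counts do not measure SUMO conjugation, which was not measured here.

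The D3 libraries held 23551283 and 28215299 reads in genes, and the D1 libraries 21040992 and 32610314. Log2 CPM, reads scaled to a common library total, correlated across genes at r = 0.9874 between the D3 libraries and 0.988 between the D1 libraries, and at 0.9489 to 0.9606 between the groups; genes are not independent replicates. Library depth did not follow the groups, but more genes had at least 1 read at D3 (28012 and 28454) than at D1 (25579 and 26571). All 10 embryonic stem cell markers were detected, with a summed level of 4350 and 4340 CPM at D3 and 6060 and 6870 CPM at D1. Of 15 fibroblast (feeder) markers 10 had enough reads to be tested, and they summed to 64.5 and 51.1 CPM at D3 and 43.3 and 44.9 CPM at D1. Among the 15, Col3a1, Postn, Lum, Dcn and Twist2 had 0 reads in both D1 libraries. Primitive endoderm markers summed to 384 and 513 CPM at D3 and 364 and 514 CPM at D1. Of the 10 tested, 2 rose and 0 fell at an adjusted p under 0.05 in edgeR's quasi-likelihood test (20% and 0%). The shares of all genes tested were 7.92% and 5.1%. The 2 were Gata6 (log2 fold change 1.355 ± 0.254 SE) and Pdgfra (1.558 ± 0.254), both lost without D1 replicate 1 or 2. In bulk libraries such as these, fewer cells of a type and less RNA per cell cannot be told apart.

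Across all genes, 2496 of the 19173 tested changed between D3 and D1 at an adjusted p under 0.05 in edgeR's quasi-likelihood test, 13% of those tested. Of these, 1518 were higher at D3 (7.92%) and 978 were lower (5.1%). Large changes leaned further to rises: 832 genes were called and at least 4-fold higher (4.34%), against 159 called and at least 4-fold lower (0.829%). The median log2 fold change of all genes tested was -0.00186. The number of calls rested on having all 4 libraries: 588 and 1101 were made without D3 replicates 1 and 2, and 669 and 363 without D1 replicates 1 and 2. The share of calls that were higher was 60.8% with all libraries and 49.6% to 73.4% in those 4 fits.

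**Figure D1:**
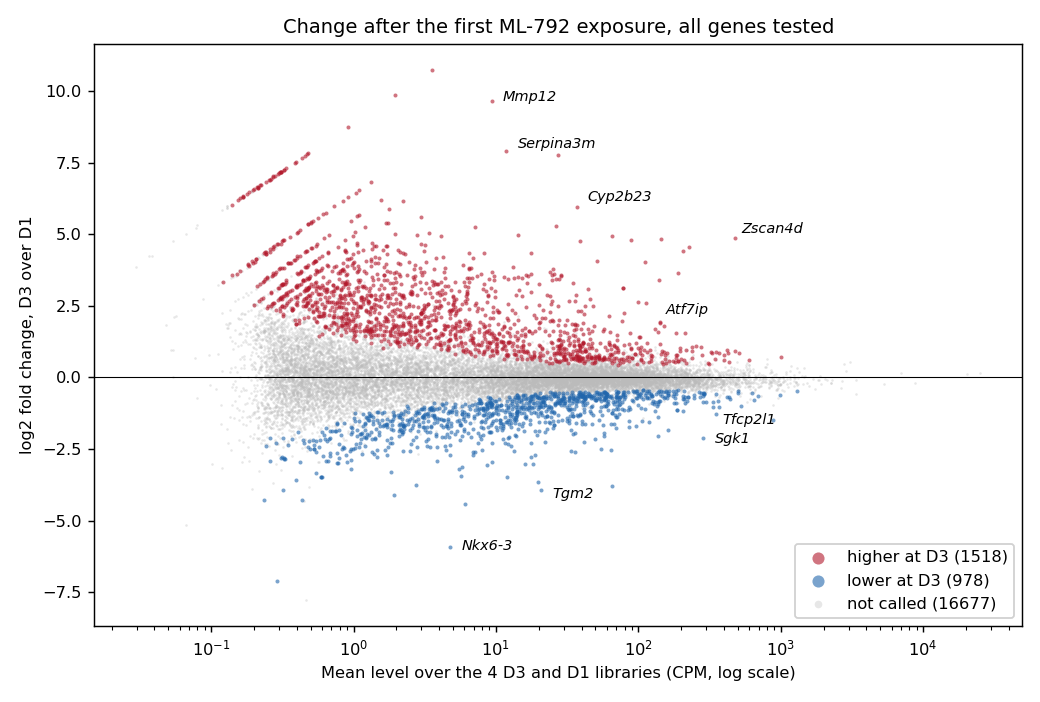
Log2 fold change of D3 over D1 (vertical axis) against the mean level over the 4 D3 and D1 libraries in CPM (horizontal log axis), 1 point a gene. Red points are the 1518 genes called higher at D3, blue the 978 called lower and grey the rest, and the slanted rows at low level are genes with few reads at D1, whose fitted fold depends on the prior count and is no bound.

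Genes of the 2-cell embryo were higher at D3 as a group. All 10 tested members of the 2-cell-like marker list rose, with a median log2 fold change of 4.15, and their summed level was 2750 and 850 CPM at D3 against 94.2 and 47.1 CPM at D1. Zscan4d, a zinc finger gene of the 2-cell embryo, had 1453 and 405 CPM at D3 and 44.9 and 19.5 CPM at D1 (log2 fold change 4.86 ± 0.64 SE, adjusted p = 0.0039). Zscan4f had 430 and 130 CPM at D3 and 14.8 and 5.19 CPM at D1 (4.83 ± 0.64). D3 replicate 1 was the higher D3 library for both genes and D1 replicate 1 the higher D1 library, yet the groups did not overlap. Duxf3, the Dux gene itself, had 7.41 and 3.55 CPM at D3 and 0.287 and 0.466 CPM at D1 (3.80 ± 0.49, adjusted p = 0.0036). Usp17le, a deubiquitinase gene of the same stage, had 103 and 47.5 CPM at D3 and 3.11 and 2.48 CPM at D1 (4.76 ± 0.55). These 4 calls held when any 1 of the 8 libraries was left out. Of the 10 marker calls, 7 and 10 were made without D3 replicates 1 and 2, and 7 and 6 without D1 replicates 1 and 2. All 6 genes of the Zscan4 family rose, as did all 5 tested Usp17l genes and 5 of 10 tested Pramel and Pramef genes. Pramef25, of the last family, had 30.1 and 14.6 CPM at D3 and 2.10 and 2.05 CPM at D1 (3.42 ± 0.43), a call that held without any 1 library. Without D1 replicate 2 the calls of the 3 families numbered 4, 1 and 2, and without D1 replicate 1 or D3 replicate 1 they numbered 6, 2 and 2. All are multi-copy families, and reads could be split between copies, so values of single members are uncertain.

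The promoters of Zscan4d and Zscan4c are shown because the family rose as a block and Dux has a known binding motif. Both are RefSeq promoters on GRCm38.p6, 250 bases before to 50 after the start site, at chr7:11166099-11166398 on the minus strand and chr7:11005495-11005794 on the plus strand. Capitals mark a match to the Dux motif on either strand, TGATT and, after any 2 bases, ATCA, 125 bases before the start of Zscan4d and 114 before that of Zscan4c.
Zscan4d: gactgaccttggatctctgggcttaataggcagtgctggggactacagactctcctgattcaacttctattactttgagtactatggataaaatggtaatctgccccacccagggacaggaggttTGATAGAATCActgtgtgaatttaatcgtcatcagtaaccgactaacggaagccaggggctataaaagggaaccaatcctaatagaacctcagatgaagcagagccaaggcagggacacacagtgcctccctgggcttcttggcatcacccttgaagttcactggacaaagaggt
Zscan4c: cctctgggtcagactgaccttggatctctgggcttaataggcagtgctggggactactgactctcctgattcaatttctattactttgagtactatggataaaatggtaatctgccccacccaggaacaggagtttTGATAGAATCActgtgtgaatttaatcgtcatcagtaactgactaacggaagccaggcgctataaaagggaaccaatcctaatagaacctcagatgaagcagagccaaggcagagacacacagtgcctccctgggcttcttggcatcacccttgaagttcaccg
The motif was present in the promoters of all 4 Zscan4 genes that have one in the table (Zscan4b, Zscan4c, Zscan4d and Zscan4f). It was found in 0.61% of 1148 promoters of genes called higher, 0% of 951 promoters of genes called lower and 0.122% of the 15541 promoters of genes tested. The other called genes with it were Abcb5, a transporter gene, Trim30d and the vomeronasal receptor gene Vmn2r18, all higher at D3 and picked out after their values were seen. The adjusted p was 0.056 to 0.085 for Abcb5 and 0.077 to 0.12 for Vmn2r18 without D1 replicate 1, D1 replicate 2 or D3 replicate 1, and 0.064 to 0.17 for Trim30d without any 1 D3 or D1 library. A match is a description of the sequence only.

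Outside the 2-cell group, several genes that were nearly silent at D1 reached clear levels at D3. Serpina3m, a serine protease inhibitor gene of a multi-copy cluster (mm10, chr12:104338486-104394257), had 19.4 and 27.8 CPM at D3 and 0.0478 and 0.124 CPM at D1 (7.92 ± 0.57, adjusted p = 0.00086). Cyp2b23, a cytochrome P450 gene (chr7:26665227-26686437), had 48.6 and 96.5 CPM at D3 and 0.909 and 1.37 CPM at D1 (5.96 ± 0.44, adjusted p = 0.00086). Cthrc1, which encodes a secreted matrix protein, had 9.43 and 18.3 CPM at D3 and 0.335 and 0.373 CPM at D1 (5.27 ± 0.60, adjusted p = 0.0025). In each case every D3 library lay more than 10 times above every D1 library, and the calls of these 3 genes held without any 1 library. Akr1c21, an aldo-keto reductase gene, had 4.80 and 6.79 CPM at D3 and 0.191 and 0.0621 CPM at D1 (5.60 ± 0.48). Grin2a, an NMDA receptor subunit gene, had 5.30 and 7.87 CPM at D3 and 0.335 and 0.0932 CPM at D1 (5.06 ± 0.59). Pcdh8, a protocadherin gene, had 6.53 and 4.28 CPM at D3 and 0.0956 and 0.217 CPM at D1 (4.98 ± 0.46). These 3 also held without any 1 library.

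For genes with 1 to 3 reads at D1, the ratio of the D3 to the D1 reads is given with its exact 95% interval, which covers counting error only. Mmp12, a macrophage elastase gene, had 172 and 864 reads at D3 and 1 and 0 at D1, a ratio of 1050 (188 to 41400). Mmp1b, a collagenase gene beside it, had 38 and 78 reads at D3 and 1 and 0 at D1, a ratio of 117 (20.6 to 4670). Mmp3, the stromelysin gene that follows, had 7 and 23 reads at D3 and 0 at D1, at least 10.1-fold higher taking 3 reads over the D1 libraries as the floor. The 3 genes are neighbours on chromosome 9, from 7344381 to 7455975 on mm10. They are among 5 of 26 tested metalloprotease and inhibitor genes that rose, with 0 that fell and a median log2 fold change of -0.03; the rises numbered 2 and 4 without D3 replicates 1 and 2, and 2 and 1 without D1 replicates 1 and 2. Mmp1b kept its call in every fit that left out 1 library, whereas the adjusted p of Mmp12 was 0.059 without D1 replicate 2 and that of Mmp3 was 0.062 to 0.15 without any 1 D3 or D1 library. Cldn10, a tight junction gene, had 52 and 137 reads at D3 and 0 and 3 at D1, a ratio of 63.7 (21.5 to 312). Rdh16, a retinol dehydrogenase gene, had 61 and 104 reads at D3 and 1 in each D1 library, a ratio of 83.4 (22.7 to 695). Zp3r had 50 and 54 reads at D3 and 0 and 3 at D1 (35.1, 11.7 to 173).

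The second RefSeq start of Mmp12 (GRCm38.p6, chr9:7347124-7347423, plus strand) is shown because the gene has the largest ratio given here. Capitals mark a match to the AP-1 motif TGANTCA, on either strand, 44 bases before that start; the other start has none.
Mmp12: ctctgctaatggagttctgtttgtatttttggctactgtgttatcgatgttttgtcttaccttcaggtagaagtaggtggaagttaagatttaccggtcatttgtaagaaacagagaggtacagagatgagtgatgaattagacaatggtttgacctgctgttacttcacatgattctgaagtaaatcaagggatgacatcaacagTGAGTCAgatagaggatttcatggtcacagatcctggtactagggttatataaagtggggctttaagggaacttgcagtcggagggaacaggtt
The motif was in 7.75% of promoters of genes called higher, 6.2% of those called lower and 5.29% of all tested. In the list of immediate early genes, which holds AP-1 subunits, 5 of 25 tested rose and 3 fell. These are 20% and 12%, against 7.92% and 5.1% of all genes tested. Fewer rises and fewer falls in the list were called when any 1 D3 or D1 library was left out. Jun had 15.9 and 10.3 CPM at D3 and 3.78 and 3.73 CPM at D1 (1.80 ± 0.41, adjusted p = 0.025). Fosl1 had 2.36 and 1.25 CPM at D3 and 0.191 and 0.248 CPM at D1 (2.98 ± 0.53). Both calls were lost without D1 replicate 1 (adjusted p = 0.13 for Jun and 0.072 for Fosl1), D1 replicate 2 (0.15 and 0.081) or D3 replicate 1 (0.16 and 0.064).

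**Figure D2:**
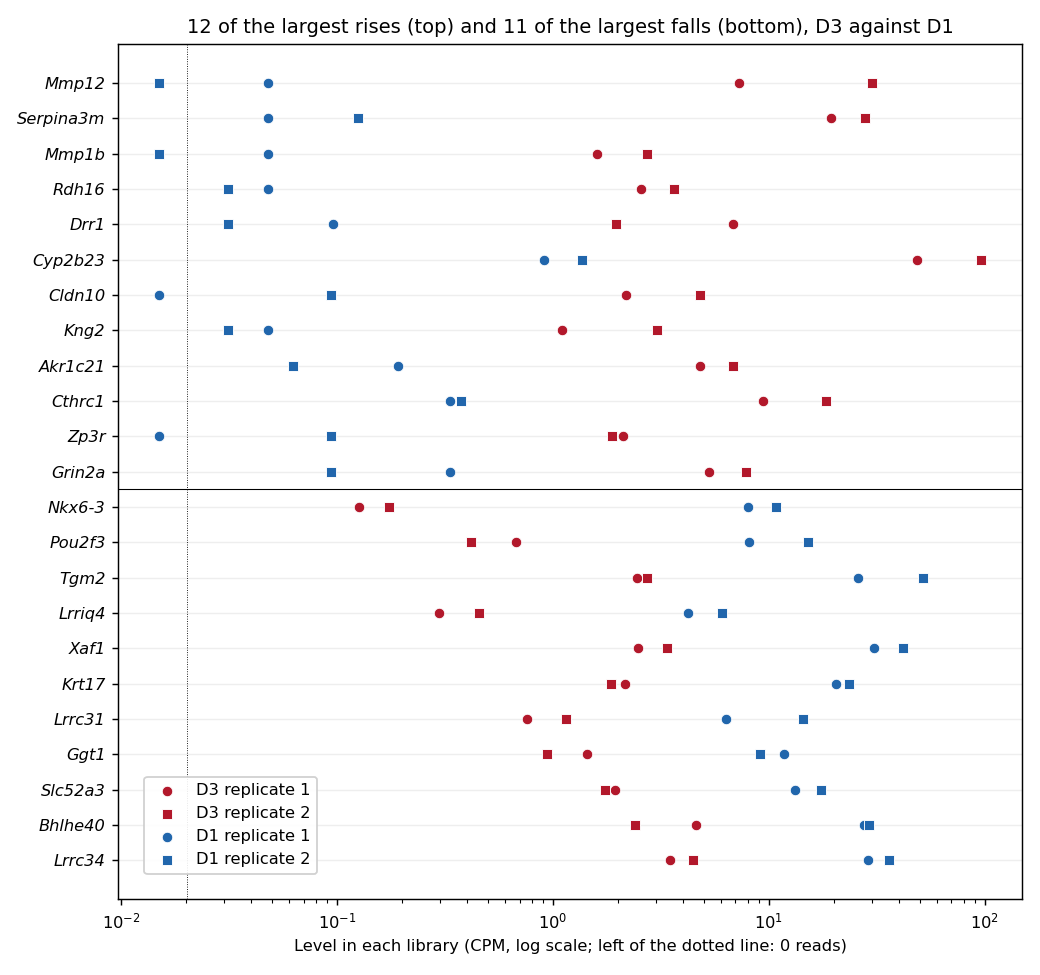
Level in each library in CPM (horizontal log axis) for 12 of the largest rises and 11 of the largest falls, 1 row a gene. Red points are D3 and blue points D1, circles replicate 1 and squares replicate 2, and points left of the dotted line are libraries with 0 reads; the colours do not overlap in any row, as the naming rule required.

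Reads also appeared at D3 in genes with none at D1. Of 8486 genes in the table with 0 reads in both D1 libraries, 1300 had at least 1 read in each D3 library and 27 had at least 10 in each. The reverse was rarer: of 5884 genes with 0 reads at D3, 332 had a read in each D1 library and 2 had at least 10. Slc2a9, a urate transporter gene, had 49 and 46 reads at D3 (at least 32-fold higher). Ebf2, a transcription factor gene, had 20 and 31 reads at D3 (at least 17.2-fold), and Dpep1, a dipeptidase gene, 25 and 22 (at least 15.8-fold). These genes were chosen after their values were seen; without D1 replicate 2 the adjusted p was 0.062 for Slc2a9, 0.06 for Ebf2 and 0.067 for Dpep1. In 4 gene families some members rose: 9 of 15 tested vomeronasal receptors, 10 of 21 tested olfactory receptors, 7 of 32 tested cytochrome P450 genes and 8 of 34 tested collagens, with 0, 0, 0 and 1 lower. These are 60%, 47.6%, 21.9% and 23.5%, against 7.92% of all genes tested and 27% of those in the lowest of 10 bins of mean level at D1. Only members with enough reads in some library were tested, 15 of 141 vomeronasal and 21 of 338 olfactory receptor genes, so a member silent at D1 passed the read filter only where other libraries, D3 included, had reads. Col6a5, a collagen VI chain gene, was the collagen call that held without any 1 library, at 34.9 and 44.2 CPM at D3 against 7.22 and 8.95 CPM at D1 (2.29 ± 0.21). Of the collagen calls, 1 and 3 were made without D3 replicates 1 and 2, and 1 and 1 without D1 replicates 1 and 2; for vomeronasal receptors the counts were 3 and 7, and 2 and 1. For olfactory receptors they were 4 and 9, and 1 and 0, and for cytochrome P450 genes 1 and 3, and 1 and 1; the last family had 4 without either D10 replicate.

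The deep falls were in genes of several kinds. Nkx6-3, a homeobox gene (mm10, chr8:23153269-23158948), had 0.126 and 0.174 CPM at D3 and 8.03 and 10.8 CPM at D1 and fell by 5.91 ± 0.46 on the log2 scale (adjusted p = 0.00086). Tgm2, a transglutaminase gene, had 2.44 and 2.72 CPM at D3 and 26 and 51.7 CPM at D1 and fell by 3.91 ± 0.41. The lowest D1 library lay far above the highest D3 library for both. Bhlhe40, a transcriptional repressor gene of the circadian and hypoxia pathways, had 4.59 and 2.40 CPM at D3 and 27.7 and 29.0 CPM at D1 (-3.03 ± 0.31). Sgk1, a serum-regulated kinase gene (chr10:21882184-21999903), had 115 and 102 CPM at D3 and 474 and 452 CPM at D1 (-2.09 ± 0.15, adjusted p = 0.00086). Xaf1, an interferon-inducible gene, had 2.48 and 3.38 CPM at D3 and 30.8 and 42.0 CPM at D1 (-3.63 ± 0.41). The calls of these 5 genes held without any 1 library, as did those of Pou2f3, Ggt1 and Slc52a3, which fell by 4.42 ± 0.46, 3.13 ± 0.37 and 3.06 ± 0.37.

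A neighbouring trio of leucine-rich repeat genes on chromosome 3 fell together. Lrrc34 had 3.49 and 4.46 CPM at D3 and 28.7 and 36.1 CPM at D1 (-3.02 ± 0.27, adjusted p = 0.0013). Lrriq4 had 0.295 and 0.453 CPM at D3 and 4.21 and 6.09 CPM at D1 (-3.76 ± 0.38, adjusted p = 0.0019). Lrrc31 had 0.758 and 1.15 CPM at D3 and 6.31 and 14.4 CPM at D1 (-3.43 ± 0.57), and its call was lost without D1 replicate 2 (adjusted p = 0.061) or D3 replicate 1 (0.068), unlike those of the other two. Lrrc34 and Lrriq4 lie on opposite strands and their annotated spans overlap, so without a stated strand setting reads in the overlap cannot be assigned to one of them. RefSeq places their start sites 151 bases apart and facing away from each other. That shared stretch is shown as part of the Lrrc34 promoter (GRCm38.p6, chr3:30647769-30648068, minus strand), with the bases between the 2 start sites in capitals.
Lrrc34: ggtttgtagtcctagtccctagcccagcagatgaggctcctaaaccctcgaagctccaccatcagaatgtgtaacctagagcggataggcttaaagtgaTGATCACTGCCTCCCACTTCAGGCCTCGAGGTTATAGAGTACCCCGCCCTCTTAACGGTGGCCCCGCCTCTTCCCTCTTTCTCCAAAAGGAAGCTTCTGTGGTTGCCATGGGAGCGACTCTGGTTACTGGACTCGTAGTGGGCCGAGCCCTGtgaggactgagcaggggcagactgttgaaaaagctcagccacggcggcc

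Genes of amino acid supply were lower at D3. Of 34 tested genes of amino acid synthesis, transport and one-carbon metabolism, many of them targets of the stress factor ATF4, 16 fell and 1 rose. These are 47.1% and 2.94%, against 5.1% and 7.92% of all genes tested. The median log2 fold change was -0.62. Cth, which makes cysteine, had 26.9 and 36.5 CPM at D3 and 92.5 and 122 CPM at D1 (-1.76 ± 0.24, adjusted p = 0.0042). Gpt2, an alanine transaminase gene, had 26 and 37.1 CPM at D3 and 87.2 and 107 CPM at D1 (-1.63 ± 0.19). Psat1, an enzyme of serine synthesis, had 213 and 274 CPM at D3 and 501 and 496 CPM at D1 (-1.03 ± 0.15, adjusted p = 0.0045). Nupr1, a stress-induced chromatin factor gene, had 1.64 and 3.0 CPM at D3 and 15.9 and 11.3 CPM at D1 (-2.54 ± 0.36). These 4 calls held without any 1 library, and D3 and D1 libraries did not overlap. Sesn2, a leucine sensor gene that p53 and ATF4 both induce, was the member that rose (1.07 ± 0.17), and that call was lost without D1 replicate 1 or 2; it was singled out after its value was seen. Without D3 replicates 1 and 2 the falls numbered 5 and 5, and without D1 replicates 1 and 2 they numbered 4 and 6.

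The enzymes that charge transfer RNAs with amino acids, many of them ATF4 targets too, fell in part: 7 of 20 tested fell and 0 rose. These are 35% and 0%, against 5.1% and 7.92% of all genes tested. The median log2 fold change was -0.38, and all 20 had a value below 0 (-1.02 to -0.18). Nars, the asparagine enzyme, had 216 and 226 CPM at D3 and 463 and 434 CPM at D1 (-1.02 ± 0.12, adjusted p = 0.0026), a call that held without any 1 library. Aars, the alanine enzyme, had 542 and 540 CPM at D3 and 882 and 802 CPM at D1 (-0.64 ± 0.12, adjusted p = 0.011), and its adjusted p was 0.068 to 0.1 without any 1 D3 or D1 library. Without D3 replicates 1 and 2 there were 1 and 4 calls in the list, without D1 replicates 1 and 2 there were 1 and 1, and without either D8 replicate there were 11.

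Promoters of Trib3, an ATF4-induced pseudokinase gene, and of Aars are shown because ATF4 has a known composite motif. Trib3 had 12.5 and 13.3 CPM at D3 and 40.6 and 24.8 CPM at D1 (-1.34 ± 0.24), a call lost without D1 replicate 1 (adjusted p = 0.053), D3 replicate 1 (0.076) or D3 replicate 2 (0.051). Capitals mark TGATGNAA on either strand, in RefSeq promoters at chr2:152344011-152344310 (minus strand) and chr8:111033592-111033891 (plus strand) on GRCm38.p6.
Trib3: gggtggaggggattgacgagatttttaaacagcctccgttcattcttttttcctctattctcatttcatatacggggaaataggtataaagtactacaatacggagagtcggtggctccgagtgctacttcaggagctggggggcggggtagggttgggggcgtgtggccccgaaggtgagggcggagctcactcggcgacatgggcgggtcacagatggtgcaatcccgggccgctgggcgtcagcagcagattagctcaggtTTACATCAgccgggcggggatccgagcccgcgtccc
Aars: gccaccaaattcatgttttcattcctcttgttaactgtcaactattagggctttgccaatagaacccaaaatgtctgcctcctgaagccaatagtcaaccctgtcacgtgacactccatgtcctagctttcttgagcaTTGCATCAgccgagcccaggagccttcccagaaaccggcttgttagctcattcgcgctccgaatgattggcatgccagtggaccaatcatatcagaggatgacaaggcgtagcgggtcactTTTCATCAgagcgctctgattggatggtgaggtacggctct
Counting genes with the motif in any promoter, it was in 27.6% of 29 amino acid genes and 41.7% of 12 transfer RNA enzymes, against 2.75% of the 12237 genes with a promoter. Among all genes called it was about as frequent in those higher (4.05%) as in those lower (4.51%), and both lists hold known ATF4 targets. Among members called lower it was in 4 of 12 and in 4 of 5. The calls of Aars in fits that left out 1 D3 or D1 library are given above.

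Cholesterol synthesis, the sterol pathway driven by the factor SREBP, was also lower: 11 of 25 tested genes fell and 0 rose. These are 44% and 0%, against 5.1% and 7.92% of all genes tested. The median log2 fold change was -0.57. Fdps, which makes farnesyl diphosphate, had 3.70 and 2.61 CPM at D3 and 7.89 and 9.19 CPM at D1 (-1.44 ± 0.32). Msmo1, a sterol demethylation enzyme gene, had 83.9 and 91.2 CPM at D3 and 155 and 182 CPM at D1 (-0.94 ± 0.15). Both genes were lower in both D3 libraries than in either D1 library. The list's calls depended on each library, with 0 and 2 left without D3 replicates 1 and 2, and 2 and 0 without D1 replicates 1 and 2. Without D1 replicate 2 the adjusted p was 0.13 for Fdps and 0.07 for Msmo1, and without D3 replicate 1 it was 0.071 for both; for Fdps it was also 0.074 and 0.15 without D1 replicate 1 and D3 replicate 2. A sterol element (TCACNCCAC, either strand) was in promoters of 1 of 17 genes of the list, Hmgcs1, and of 1.47% of all genes. Hmgcs1, the enzyme before the rate-limiting step, had 234 and 226 CPM at D3 and 295 and 375 CPM at D1 (-0.54 ± 0.14, adjusted p = 0.037), and this call was lost without any 1 D3 or D1 library (0.051 to 0.26) and without D10 replicate 1 (0.055). Its RefSeq promoter (GRCm38.p6, chr13:119690101-119690400, plus strand) is shown with the element in capitals.
Hmgcs1: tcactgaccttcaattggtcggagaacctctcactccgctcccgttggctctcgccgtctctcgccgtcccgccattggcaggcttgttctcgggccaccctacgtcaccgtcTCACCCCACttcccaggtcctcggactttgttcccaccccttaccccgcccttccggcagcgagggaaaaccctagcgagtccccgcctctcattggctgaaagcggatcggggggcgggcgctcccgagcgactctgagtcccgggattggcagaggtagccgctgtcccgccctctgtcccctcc

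**Figure D3:**
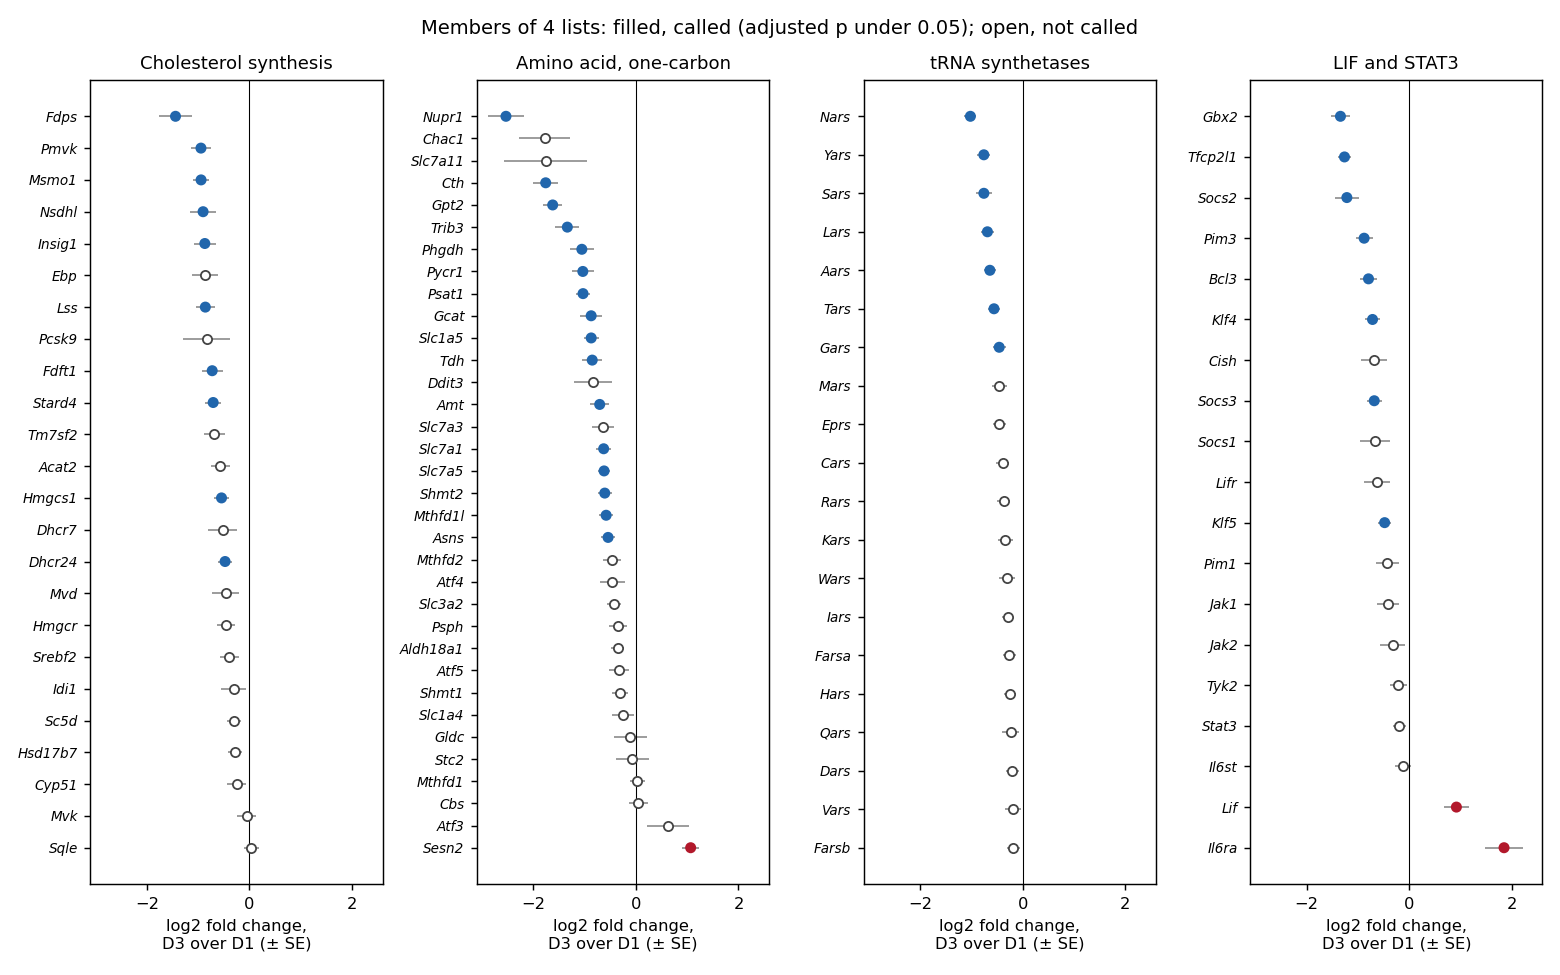
Log2 fold change of D3 over D1 with its SE (horizontal axis) for genes of 4 lists, 1 row a gene. Filled points passed an adjusted p of 0.05, blue lower and red higher, and open points did not; in each panel blue points outnumber red ones, and in the panels of cholesterol synthesis and tRNA synthetases no point is red.

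LIF, a cytokine added to these cultures, signals through its receptor, Jak kinases and Stat3 to keep the naive state. Of 20 tested genes of this pathway 9 fell and 2 rose, with a median log2 fold change of -0.65. These are 45% and 10%, against 5.1% and 7.92% of all genes tested. The 2 that rose are a ligand and a receptor gene. Lif had 6.90 and 8.39 CPM at D3 and 3.35 and 4.69 CPM at D1 (0.92 ± 0.25), and Il6ra had 11.7 and 7.56 CPM at D3 and 2.68 and 2.64 CPM at D1 (1.85 ± 0.37). Stat3 had 98.9 and 105 CPM at D3 and 109 and 124 CPM at D1 and did not pass (-0.19 ± 0.13, adjusted p = 0.38). The falls are in other genes of the list, and whether Stat3 acts on them was not tested. Tfcp2l1, a naive-state factor gene, had 190 and 223 CPM at D3 and 497 and 494 CPM at D1 (-1.26 ± 0.13, adjusted p = 0.0021), a call that held without any 1 library. Socs3, the feedback inhibitor, had 133 and 103 CPM at D3 and 189 and 188 CPM at D1 (-0.68 ± 0.15). Klf4 had 89.7 and 90.9 CPM at D3 and 155 and 141 CPM at D1 (-0.72 ± 0.15). Without any 1 D3 or D1 library the adjusted p was 0.087 to 0.12 for Klf4 and 0.09 to 0.23 for Lif, and for Lif it was also 0.059 and 0.058 without D10 replicates 1 and 2. For Socs3 it was 0.093 to 0.15 without D1 replicate 1, D1 replicate 2 or D3 replicate 2, and for Il6ra 0.091 to 0.11 without D1 replicate 1, D1 replicate 2 or D3 replicate 1. The GC content and length correction also ended the calls of Socs3 (0.055) and Klf4 (0.052). A Stat motif (TTCNNNGAA) was in promoters of 2 of 17 genes of the list, Socs3 and Cish, and of 7.93% of all genes. Without D3 replicates 1 and 2 the list had 3 and 3 falls, and without D1 replicates 1 and 2 it had 4 and 3.

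Of 24 tested genes of the naive state 10 fell and 1 rose (41.7% and 4.17%). Of 18 tested genes of the formative and primed epiblast, the next stage of the embryo, 6 rose and 1 fell (33.3% and 5.56%). The shares of all genes tested were 7.92% higher and 5.1% lower. Fgf4, a growth factor gene, had 55.1 and 52.2 CPM at D3 and 198 and 246 CPM at D1 (-2.05 ± 0.17, adjusted p = 0.00091), and Tcl1, a co-activator gene of the kinase Akt, had 15 and 21.8 CPM at D3 and 74.8 and 87.7 CPM at D1 (-2.14 ± 0.27). Zic2, an epiblast zinc finger gene, had 40.9 and 45.1 CPM at D3 and 5.45 and 8.04 CPM at D1 (2.66 ± 0.22, adjusted p = 0.00091). Dnmt3a, a DNA methyltransferase gene, had 319 and 318 CPM at D3 and 110 and 106 CPM at D1 (1.56 ± 0.14). Wnt8a had 3.75 and 2.68 CPM at D3 and 0.191 and 0.280 CPM at D1 (3.71 ± 0.48). All 5 calls held without any 1 library. Without D3 replicates 1 and 2 the naive list had 4 and 5 falls and the formative list 5 and 4 rises, and without D1 replicates 1 and 2 they had 5 and 5 falls and 3 and 3 rises. The core factors did not pass in edgeR. Pou5f1 had 823 and 959 CPM at D3 and 1080 and 1370 CPM at D1 (-0.46 ± 0.15, adjusted p = 0.086). Nanog was at -0.76 ± 0.24 (0.07) and Sox2 at 0.10 ± 0.16 (0.74). Of the 10 embryonic stem cell markers 2 fell (20%, against 5.1% of all genes tested). That count depended on the fit: it was 4 and 5 without D8 replicates 1 and 2, 4 without either D10 replicate, 1 without D1 replicate 2, 6 with no filter on low counts, and 7 with the D1 and D3 libraries alone or with a replicate block. Of 9 neural progenitor markers 4 were tested and 0 called, and the 4 summed to 58.1 and 56.7 CPM at D3 and 37.6 and 46.3 CPM at D1. Of 10 trophoblast markers 8 were tested and 0 called, and the 8 summed to 26.6 and 26.8 CPM at D3 and 30.5 and 32.0 CPM at D1.

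In the Notch pathway a ligand on one cell activates a receptor on the next. Of 21 tested genes 5 rose and 4 fell (23.8% and 19%, against 7.92% and 5.1% of all genes tested). Fewer rises and fewer falls of this pathway were called when any 1 D3 or D1 library was left out. The ligand gene Jag1 had 42.9 and 51.5 CPM at D3 and 14 and 21 CPM at D1 (1.43 ± 0.20, adjusted p = 0.0046), and the target repressor gene Hes1 had 15.5 and 15.4 CPM at D3 and 43.4 and 42.7 CPM at D1 (-1.48 ± 0.14, adjusted p = 0.0014). Both held without any 1 library. Hey2, another target repressor gene, went the other way, with 1.14 and 1.25 CPM at D3 and 0.335 and 0.311 CPM at D1 (1.88 ± 0.43, adjusted p = 0.024, and 0.1 to 0.16 without any 1 D3 or D1 library). The ligand gene Dll1 had 20.9 and 11.9 CPM at D3 and 2.01 and 1.80 CPM at D1 (3.11 ± 0.45), with an adjusted p of 0.062 without D1 replicate 2. In the Hedgehog pathway 3 of 14 tested genes fell and 0 rose (21.4% and 0%, against 5.1% and 7.92% of all genes tested). Fewer falls were called when any 1 D3 or D1 library was left out. Its transcription factor and target gene Gli1 had 7.49 and 8.53 CPM at D3 and 31.5 and 27.1 CPM at D1 (-1.87 ± 0.23), which held without any 1 library. Of 18 tested retinoic acid genes 3 rose and 2 fell (16.7% and 11.1%, against 7.92% and 5.1% of all genes tested). The rises numbered 1 without D1 replicate 2 and 5 without either D8 replicate, and the falls 0 without any 1 D3 or D1 library and 1 without D10 replicate 1. This list holds the receptor gene Rxrg at 9.81 and 7.59 CPM at D3 against 1.67 and 1.49 CPM at D1 (2.46 ± 0.26), a call that held without any 1 library. Of 33 tested genes of SRF, the coactivator Yap and the actin cytoskeleton 5 rose and 2 fell. These are 15.2% and 6.06%, against 7.92% and 5.1% of all genes tested, so the share of falls was near that of all genes. The median log2 fold change was 0.26. The calls of the rises depended on each D3 and D1 library. Tead4, a partner of Yap and 1 of the falls, had 7.20 and 8.36 CPM at D3 and 25.6 and 36.2 CPM at D1 (-1.99 ± 0.20). That call held without any 1 library.

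Genes of cell contacts changed in both directions, 6 of 50 tested higher and 8 lower (median -0.37). These are 12% and 16%, against 7.92% and 5.1% of all genes tested. Gja1, a connexin gene, had 130 and 134 CPM at D3 and 20.7 and 34.4 CPM at D1 (2.25 ± 0.26, adjusted p = 0.0026). Cdh1, the E-cadherin gene, had 205 and 165 CPM at D3 and 285 and 321 CPM at D1 (-0.71 ± 0.14), and Epcam, another epithelial adhesion gene, had 138 and 163 CPM at D3 and 73.1 and 88.5 CPM at D1 (0.90 ± 0.18). The call of Gja1 held without any 1 library; without D1 replicates 1 and 2 the adjusted p was 0.057 and 0.12 for Cdh1 and 0.11 and 0.071 for Epcam, and without D3 replicate 2 it was 0.12 and 0.1; for Epcam it was also 0.058 without D3 replicate 1. Nid1, named as a basement membrane gene and not as a gene of cell contacts, had 22.1 and 26.2 CPM at D3. At D1 it had 78.2 and 105 CPM (-1.92 ± 0.22). The rises and falls in the list numbered 2 and 4 without D3 replicate 1, 3 and 5 without D3 replicate 2, 2 and 7 without D1 replicate 1 and 2 and 2 without D1 replicate 2; without D8 replicate 2 the falls numbered 14.

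Targets of p53, the tumour suppressor activated by DNA damage and other stress, were higher: 12 of 32 tested rose and 1 fell. These are 37.5% and 3.12%, against 7.92% and 5.1% of all genes tested. The median log2 fold change was 0.50. Mdm2, the gene of the ligase that limits p53, had 320 and 328 CPM at D3 and 133 and 176 CPM at D1 (1.07 ± 0.15, adjusted p = 0.0046). Pmaip1, a pro-apoptotic gene, had 259 and 214 CPM at D3 and 54.9 and 81.4 CPM at D1 (1.79 ± 0.21, adjusted p = 0.0026). Both calls held without any 1 library. Among apoptosis regulators 4 of 34 tested rose and 1 fell (11.8% and 2.94%, against 7.92% and 5.1% of all genes tested). Casp8, an initiator caspase gene, was named from these regulators. Its level was 17.4 and 18.5 CPM at D3 against 6.22 and 5.81 CPM at D1 (1.58 ± 0.19), a call that also held. Cdkn1a, the cell cycle inhibitor gene, had 42.8 and 55.3 CPM at D3 and 19.0 and 25.3 CPM at D1 (1.14 ± 0.31, adjusted p = 0.046), a call lost without any 1 D3 or D1 library (0.12 to 0.24) and without either D10 library (0.056). Trp53 itself had 201 and 194 CPM at D3 and 182 and 187 CPM at D1 (0.10 ± 0.13, adjusted p = 0.68). Without D3 replicates 1 and 2 there were 5 and 5 rises in the list, and without D1 replicates 1 and 2 there were 2 and 4. Of 55 tested DNA repair and checkpoint genes 5 fell and 1 rose (9.09% and 1.82%, against 5.1% and 7.92% of all genes). The falls numbered 0 or 1 without any 1 D3 or D1 library, and 8 and 9 without D8 replicates 1 and 2.

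**Figure D4:**
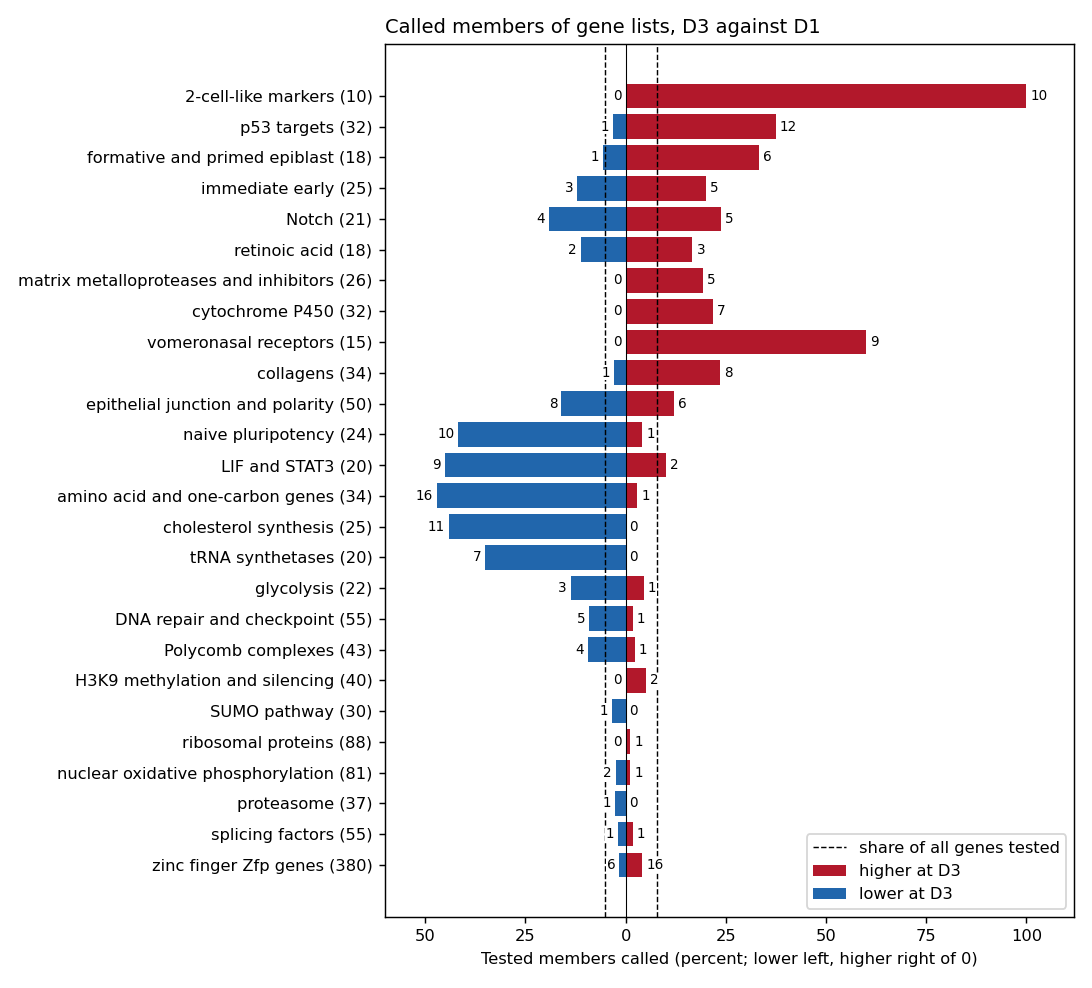
Percent of tested members called in 26 gene lists (number tested in brackets), higher at D3 to the right in red and lower at D3 to the left in blue, with the number of calls at each bar. Dashed lines mark the shares of all genes tested, 7.92% higher and 5.1% lower; the bars for metabolism and the naive state lie to the left and those for 2-cell-like markers and p53 targets to the right.

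Among transcripts of the SUMO machinery itself 1 of 30 tested was called, with a median log2 fold change of 0.06 and a summed level of 6340 and 6300 CPM at D3 and 6390 and 6130 CPM at D1. The E1 subunit genes were at -0.09 ± 0.13 for Uba2 (adjusted p = 0.7) and 0.07 ± 0.15 for Sae1 (0.81). Sumo2 was at -0.14 ± 0.21 and Sumo3 at 0.16 ± 0.16. The called member was Senp3, a nucleolar SUMO protease gene, with 202 and 216 CPM at D3 and 352 and 318 CPM at D1 (-0.68 ± 0.14, adjusted p = 0.015), and it was lost without any 1 D3 or D1 library (0.073 to 0.12). Of 40 tested genes of H3K9 methylation and silencing 2 rose and 0 fell (5% and 0%, against 7.92% and 5.1% of all genes). The rises numbered 6 with the D1 and D3 libraries alone and 8 with a replicate block, and more were called without either D8 replicate. Besides Dnmt3a, the gene that rose was Atf7ip, a partner of the methyltransferase Setdb1, with 216 and 231 CPM at D3 and 50.8 and 68.8 CPM at D1 (1.90 ± 0.17, adjusted p = 0.0014), which held without any 1 library. Trim28, the corepressor of zinc finger proteins, had 1983 and 1885 CPM at D3 and 1878 and 1844 CPM at D1 (0.06 ± 0.14, adjusted p = 0.83). Few members of the housekeeping lists were called: 1 of 88 ribosomal protein genes, 3 of 81 nuclear oxidative phosphorylation genes, 1 of 37 proteasome genes and 2 of 55 splicing factor genes. The share was 13% of all genes tested, but 3.23% higher and 4.48% lower in the most abundant of 10 bins of mean level. For oxidative phosphorylation, proteasome and splicing the falls numbered 7, 5 and 5 with the D1 and D3 libraries alone. They numbered 11, 8 and 13 with a replicate block and the GC content and length correction. A p that misses the threshold does not show that a level was the same in the groups.

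By gene class, long intergenic RNAs had the larger share of rises: 119 of 702 tested were higher at D3 and 28 lower (17% and 3.99%), against 1134 and 913 of 14693 protein-coding genes (7.72% and 6.21%). Among 1657 tested pseudogenes 153 were higher and 12 lower. By mean level over all 8 libraries, the share called higher peaked at 12.2% in bin 4 of 10 equal bins and was 3.23% in bin 10, which holds the most abundant genes. By span on the genome, it was 15.3% in the bin of the longest genes and 5.74% in that of the shortest, while 3.86% and 1.1% were lower. By GC content of the longest transcript, 9.55% were higher and 0.678% lower in the lowest bin, and 4.28% were higher and 8.97% lower in the highest. Base composition also differed between the libraries. Over 12690 coding genes, the deviation of a library from the mean of all 8 libraries followed GC content with Spearman rho values of -0.342 and -0.314 at D3 and -0.118 and 0.108 at D1; the part of this in the calls by GC content was not tested, and a fit corrected for GC content and length made 3474 calls, 57.8% of them higher.

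**Figure D5:**
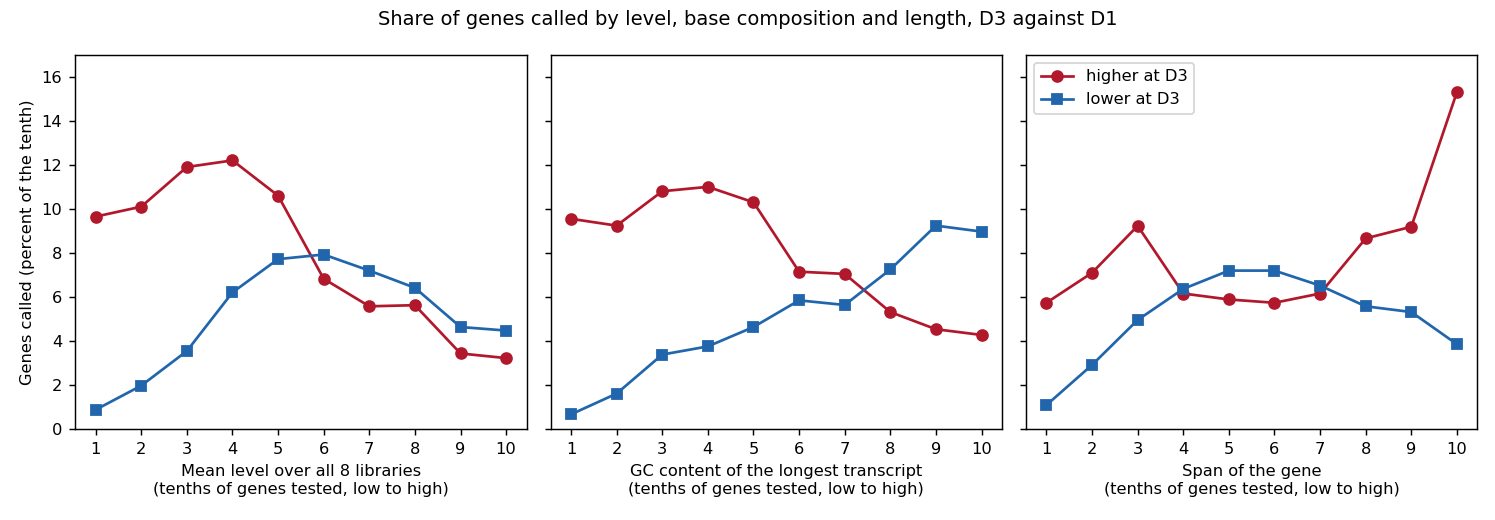
Percent of genes called higher (red circles) and lower (blue squares) at D3 against D1, in 10 equal bins of the genes tested ordered by mean level over all 8 libraries, GC content of the longest transcript and span of the gene. Calls of higher genes were most frequent in the bin with the longest span (15.3%), and calls of lower genes were fewest at the low end of each order.

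Called genes also lay side by side. Of 1509 genes called higher that have a next tested gene on their chromosome, 23.1% had one that was also called higher, against 7.9% over all such pairs; with pairs whose spans do not overlap, the shares were 23.3% and 8.66%. For genes called lower they were 15% of 977 and 5.11%. There were 65 runs of at least 3 rises in a row, the longest of 16 genes, and 27 runs of falls, the longest of 5. The run of 12 genes on chromosome 7 from 10794242 to 11614112 holds the Zscan4 cluster, and a run of 9 genes on chromosome 4 holds Pramel and Pramef genes. A run of 5 on chromosome 13, over 476.6 kb, holds the aldo-keto reductase genes Akr1c18, Akr1c13, Akr1c12, Akr1c21 and Akr1e1, of which Akr1c21 held without any 1 library and the other 4, chosen after their values were seen, had adjusted p of 0.074 to 0.15 without D1 replicate 2 and 0.063 to 0.09 without D1 replicate 1. Leaving out D3 replicate 1 also ended the call of Akr1c18 (0.065), and D3 replicate 2 those of Akr1c13 (0.1), Akr1c12 (0.057) and Akr1e1 (0.074). Family members share sequence, so neighbouring calls in such clusters can come from the same reads. By chromosome, the share called higher ran from 4.57% on chromosome 11 to 13.5% on chromosome 12 among those with more than 400 genes tested.

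The response to the first exposure was set against that to the second, which shares no library with it. D8 replicate 2 stood apart in base composition, with a rho of 0.591 between its deviation and GC content, and without it 3209 genes were called at the first exposure and 0 for the difference. The difference between the responses, tested in the same edgeR fit, was called for 0 of 19173 genes (0%), with 575 at an unadjusted p under 0.05. The count was 0 in each fit that left out 1 library, while the number at an unadjusted p under 0.05 ran from 290 without D1 replicate 1 to 2159 without D8 replicate 1, and was 1125 with a replicate block. DESeq2 called 3, Serpina3m and the predicted genes Gm13166 and Gm4617, and edgeR with no filter on low counts called 66. Of all 19173 genes tested, 1777 were called higher and 1467 lower at D10 over D8. Of the 1518 genes higher at D3, 1182 were also higher at D10 over D8, 77.9% of the first list and 66.5% of the second. Of the 978 lower, 730 were lower again, 74.6% and 49.8%. Of all 2496 called at the first exposure, 21 had the opposite sign at the second. Serpina3m rose by 7.92 ± 0.57 in the first exposure and by 3.52 ± 0.41 in the second, a difference of 4.40 ± 0.75 that did not pass in edgeR (adjusted p = 0.9999). Its mean level was 0.086 CPM at D1, before any ML-792, and 1.16 CPM at D8, after the first exposure and withdrawal. Zscan4d rose by 4.86 ± 0.64 and then by 6.30 ± 0.70, and Tfcp2l1 fell by 1.26 ± 0.13 and then by 2.27 ± 0.14. For Cth the values were -1.76 ± 0.24 (adjusted p = 0.0042) and then -0.75 ± 0.24 (0.061, not called), a difference of -1.01 ± 0.34 that did not pass. An effect called in one exposure and not in the other is therefore not shown to differ.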

How the data were processed

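RNA sequencing libraries of R1 mouse embryonic stem cells were grouped by their titles into D3, D1, D10 and D8, with 2 libraries each. The authors deposited whole-number read counts for each Ensembl gene, not normalized. According to the submitters' processing notes, bcl2fastq 2.17.1.14, STAR 2.5.0a and featureCounts were used with mm10. Which annotation was counted, and how strand and multiply mapped reads were handled, is not stated in the labels or the file, so overlapping genes, antisense genes and multi-copy families are less certain. The labels call the molecule polyA RNA, while the protocol names a kit for stranded libraries from total RNA, depleted of ribosomal RNA.

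Symbols came from GENCODE M21 by Ensembl identifier (36901 of 36920 genes matched). Of the 36920 genes 1438 had no read. filterByExpr left 19173 genes, and library sizes were scaled by TMM. D3 minus D1 was a contrast of 1 quasi-likelihood fit of all 4 groups in edgeR 4.0.16 (R 4.3.3, limma 3.58.1), with a biological coefficient of variation of 19.6%, 2-sided, adjusted by Benjamini-Hochberg over all genes tested. The SE is the size of the log2 fold change divided by the square root of F. Depth was 21040992 to 32610314 reads in genes over the D3 and D1 libraries. Intervals and floors cover counting error only. The procedure was tested on simulated data.

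The comparison, its gene lists and the genes named were chosen with earlier results of these data known. The naming rule took the 12 largest rises and 12 largest falls (adjusted p under 0.05, mean of at least 1 CPM, no overlap), the 8 largest gains and losses in CPM, up to 4 called members of each list, up to 5 genes each way for the difference between exposures, and 14 genes whatever their value, leaving out predicted-gene names. Cdh1, Epcam, Gja1, Hmgcs1, Jag1, Klf4, Lif, Psat1, Socs3, Stat3, Sumo3, Zscan4b and Cish are outside that rule and were chosen after their values were seen, as were the genes so described in the text. Promoters are RefSeq's on GRCm38.p6, found for 12237 of 19167 tested gene symbols; letters of each motif were sought on both strands. Alternatives were RLE scaling, no filter, at least 1 CPM in 4 libraries, DESeq2 1.42.0, D1 and D3 libraries alone, a replicate block, a GC content and length correction, and leaving out each library. Some genes are not reported here.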

Additional observations from a re-analysis of the deposited data

How the results depend on the processing

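Of the 258 named genes that passed, 62 passed under every setting run, including the 8 fits that left out 1 library, and 0 changed sign. Calls of genes in total, higher and lower numbered 3847, 2385 and 1462 with no filter on low counts and 4063, 2233 and 1830 with the D1 and D3 libraries alone. Leaving out 1 library gave 363 to 3209 calls in total, 222 to 1866 higher and 141 to 1378 lower. RLE scaling, at least 1 CPM in 4 libraries, DESeq2 and the GC content and length correction gave 2500, 2008, 2871 and 3474 in total. The first exposure minus the second gave 0 calls except with no filter (66) and in DESeq2 (3).

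The deviations of same-numbered libraries from their group means correlated at 0.204 between D3 and D1 and at 0.101 to 0.498 between the other pairs of groups. D3 and D1 share only 2 numbers and no label says what a number marks, so the samples were treated as unpaired, and whether the numbers mark a shared culture was not settled. A fit with a replicate block gave 4187 calls, 2406 higher and 1781 lower, and the block with the GC content and length correction gave 5142, 2807 and 2335.

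Some genes that did not pass had values near 0 that changed sign. Leaving out 1 library gave -0.02 to 0.14 for Sae1, -0.13 to 0.28 for Sox2 and -0.36 to 0.09 for Sumo2. The cause was not tested. With 2 libraries a group, each lone library left is assumed to vary like the other groups. Low read numbers limit folds of genes nearly silent at D1.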
